A study of Mus musculus with 59 samples.

Results

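The integrated stress response genes Atf4, Atf5, Ddit3, Trib3, Chac1, Asns, Psat1, Phgdh and Mthfd2 were followed in brown adipose tissue (BAT) of 59 mice. These 9 genes were taken by name from the 55341 genes of the count tables, and 1 further entry of the list named no gene. The series asks which genes respond to thyroid hormone (TH) in BAT and how the tissue of BATKO mice responds to metabolic stressors. All mice were males of the C57BL/6J background, aged 8 to 12 weeks, and each library came from a separate mouse.

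The mice fell into 15 groups of 3 experiments. In the TH experiment, 4 wild-type mice received propylthiouracil (PTU), a drug that blocks thyroid hormone synthesis, and 4 groups of 4 wild-type mice received PTU and then TH for 3, 6, 12 or 24 h. The same experiment had 5 BATKO mice on PTU and 5 BATKO mice on PTU with TH for 24 h. According to the study's methods, PTU was given in the food and TH was a single intraperitoneal injection of T3 and T4. In the temperature experiment, 4 control mice (CTRL) and 5 BATKO mice were kept at 30 °C, and 3 CTRL and 4 BATKO mice at 4 °C, and a label gives 24 h. In the diet experiment, 4 CTRL and 2 BATKO mice received chow, and 4 CTRL and 3 BATKO mice a high-fat diet (HFD), and a label gives 3.5 days.

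Neither the labels nor the methods name the gene or the promoter behind the BATKO genotype, so that the genotype could not be checked on a targeted gene. In the TH experiment the wild-type mice are numbered with a letter B and the BATKO mice without it. The labels do not say whether both genotypes were handled together. BATKO was therefore tested against wild type only through the difference of the 24 h responses, while levels are set side by side without a test. In the TH experiment, wild-type libraries held 7805938 to 14615534 counted reads and BATKO libraries 13593987 to 18073627, so that depth largely went with genotype. The temperature libraries held 8008348 to 12887313 and the diet libraries 7612059 to 11533900. Mitochondrially encoded genes took 39.2 to 55.7% of the reads. The 6 markers listed for brown adipocytes (Ucp1, Cidea, Elovl3, Ppargc1a, Adipoq and Plin1) were above 0 in every group. Their summed level was 2048 to 3739 CPM in CTRL mice at 30 °C and 17442 to 20987 CPM at 4 °C. Such a sum follows its highest markers and is not a count of cells. In whole tissue, fewer cells of a type and less RNA per cell cannot be told apart.

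In the integrated stress response, kinases that sense amino acid shortage, misfolded protein, viral RNA or mitochondrial stress phosphorylate the translation factor eIF2. Most translation then slows, while the mRNA of ATF4 is translated more, and ATF4 with its partners activates genes of amino acid synthesis, amino acid import and tRNA charging. In BAT the pathway is known for its link to mitochondrial stress and to the secreted factors FGF21 and GDF15. Because ATF4 is controlled mainly at the level of translation, its mRNA is not a measure of its protein.

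Per kilobase of exon, the members spanned a wide range of levels, and the transcription factors and Asns stood well above the others. In wild-type PTU mice, Atf4 averaged 42.4 ± 9.77 CPM per kb (SD, n = 4), Asns 25.0 ± 3.08, Atf5 22.6 ± 4.26 and Ddit3 7.85 ± 1.58. The intervals of Asns and Atf5 overlapped within their spread, whereas Atf4 and Ddit3 stood apart from both. The other members were near or below 1 CPM per kb, with 0.892 ± 0.353 for Trib3, 0.752 ± 0.148 for Psat1, 0.614 ± 0.183 for Mthfd2, 0.325 ± 0.0402 for Chac1 and 0.143 ± 0.0113 for Phgdh. Of the 9 members, 7 passed the filter on low counts among the wild-type mice of the TH experiment (all but Chac1 and Phgdh), 8 among all 30 mice of it (all but Chac1), and 8 in each of the temperature and diet experiments (all but Phgdh).

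The members lie on 7 chromosomes of GRCm38. Among the transcription factors, Atf4 spans chr15:80255184-80257541 on the plus strand, Atf5 spans chr7:44812256-44816658 on the minus strand and Ddit3 spans chr10:127290774-127296288 on the plus strand. Exons of Atf5 share 82 bases with genes of the opposite strand, and exons of Ddit3 share 68 bases with Mars on the opposite strand. The strand setting of the counting is not given in the sources used here, so reads from these stretches cannot be told apart. Sequence shared with other genes is a second limit: 56.3% of the 31-base words of Phgdh transcripts also occur in transcripts of 26 other genes, most of them in Gm7901, against 6.78% for Ddit3, 2.76% for Atf5, 2.18% for Psat1 and none for the other members. The counts of Phgdh are therefore uncertain. Of the 116 such words of Ddit3, 75 lie in a second annotated gene of the same symbol.

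ATF4 acts on DNA with a C/EBP partner at a composite element with the letters TGATGNAA, and the promoters of the members were searched for it on both strands because the members are known for this shared control. RefSeq windows (GRCm38.p6, 250 bases before to 50 after each start) were present for 9 of 9 members, as 11 windows. The element occurred in 3 of 9 members and in 3.97% of the 32817 windows of all genes. The stretches below show these 3 matches with their flanks, and the capitals mark the element, which is in reverse complement in Trib3 and Chac1.
Trib3, chr2:152344028-152344057, minus strand: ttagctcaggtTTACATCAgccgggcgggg
Chac1, chr2:119351038-119351067, plus strand: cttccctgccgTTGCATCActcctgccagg
Asns, chr6:7693214-7693243, minus strand: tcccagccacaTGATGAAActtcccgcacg
The element begins 15 bases after the start site in Trib3, and at -193 in Chac1 and -23 in Asns. The DR4 element, a pair of AGGTCA copies in tandem with a spacer of 4 bases that thyroid hormone receptors bind with RXR, was present in no window of the members and in 0.0152% of all windows. The shorter AGGTCA, which the DR4 contains, was found in the window of Ddit3 at -1 and in 16.3% of all windows. A match or its absence describes these letters in these windows.

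In wild-type mice, TH changed 2, 2, 0 and 5 of the 7 tested members at 3, 6, 12 and 24 h. The number at 24 h was 2 without PTU mouse B2 and 3 without PTU mouse B3 or the 24 h mouse B27, and that at 3 h was 0 without PTU mouse B3 or the 3 h mouse B11. After 3 h, 1 of 7 tested members was higher (Atf5) and 1 lower (Asns) in edgeR's quasi-likelihood test at a Benjamini-Hochberg adjusted p under 0.05, while 5.10% of the 13003 genes tested were higher and 4.09% lower. After 6 h, 1 was higher (Ddit3) and 1 lower (Asns), against 12.1% and 10.9% of genes. After 12 h, 0 of 7 members passed in edgeR, 0 had an unadjusted p under 0.05 and DESeq2 called 0, against 13.6% of genes higher and 12.1% lower. Without the filter on low counts, Atf5 and Ddit3 had an unadjusted edgeR p of 0.024 and 0.035 at 12 h, and neither passed. After 24 h, 4 were higher (Atf4, Atf5, Ddit3, Mthfd2) and 1 lower (Asns), against 17.2% and 15.5% of genes. The median log2 fold change over the tested members was 0.02, 0.15, 0.13 and 0.79 at 3, 6, 12 and 24 h, beside 0.01, -0.00, -0.02 and 0.01 over all genes tested. With a mouse left out, the median at 24 h ran from 0.32 (without B27) to 1.04, and those at 3, 6 and 12 h ran from -0.16 to 0.21, 0.07 to 0.31 and 0.01 to 0.36. The 4 time points share the same 4 PTU mice. Brown adipocyte markers moved in these mice too: at 24 h, 4 of 6 were lower, Adipoq (-2.14 on the log2 scale), Cidea (-0.86), Elovl3 (-2.25) and Plin1 (-1.10), and 1 was higher, Ucp1 (0.93), with a median of -0.98 over the list. At 3, 6 and 12 h the sum of the brown adipocyte markers was 11070 to 15780, 13276 to 15166 and 11423 to 18254 CPM. In PTU mice it was 8741 to 10392 CPM. The part of the markers in the results at any of these times was not tested.

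**Figure D1:**
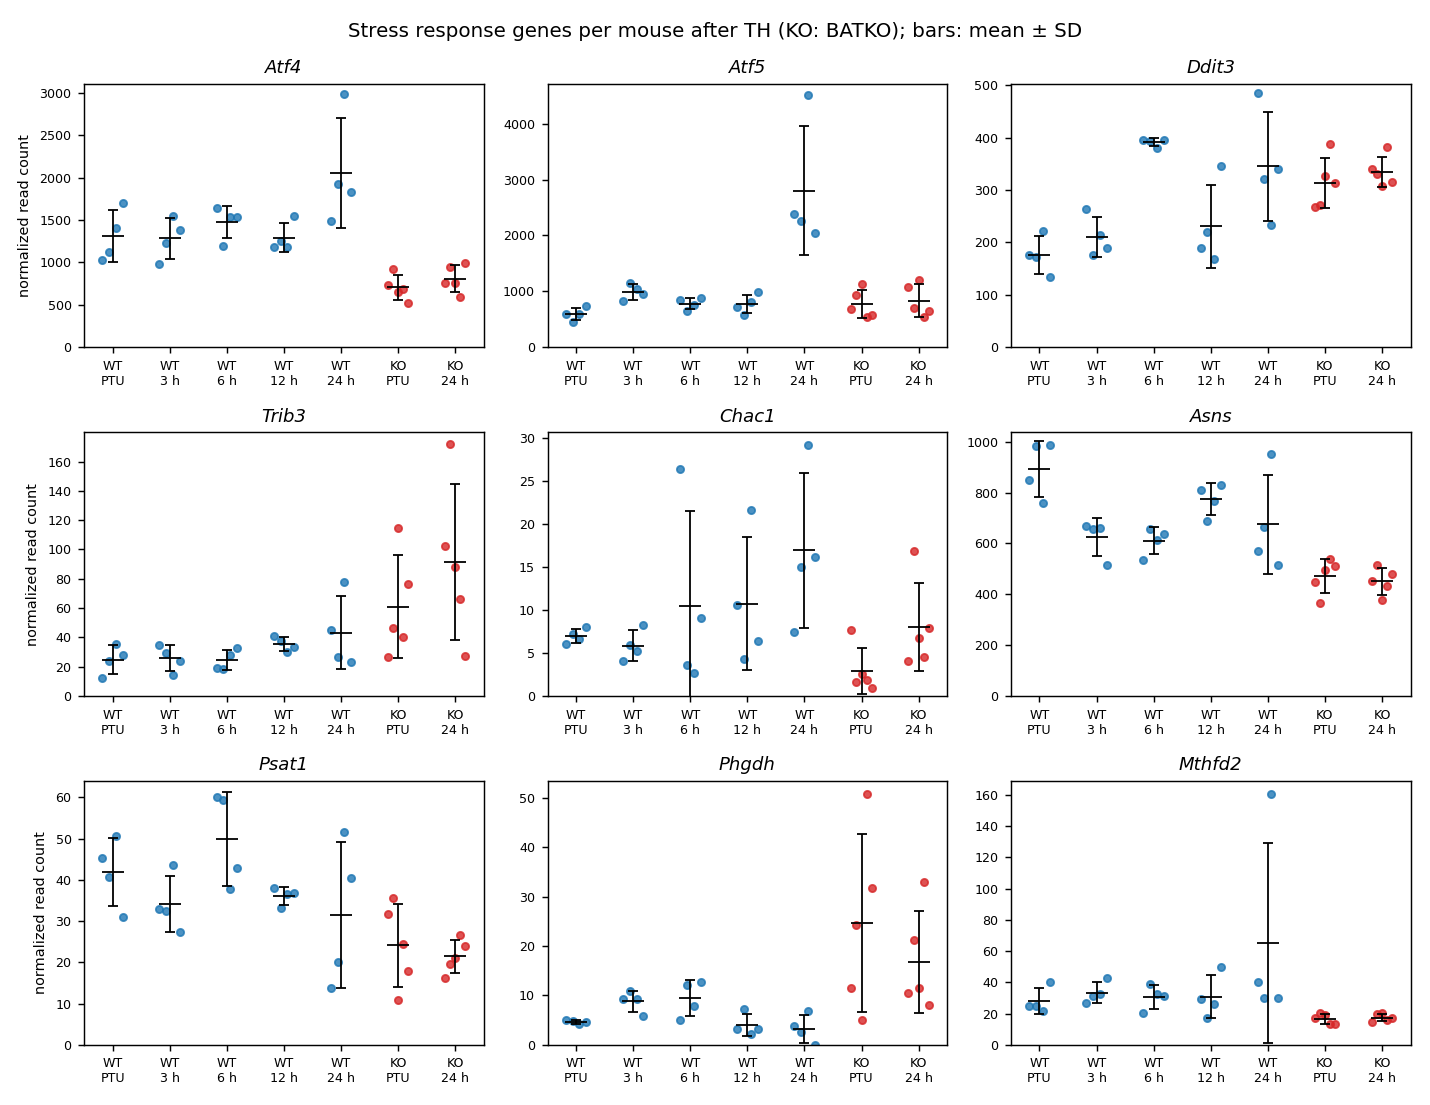
Normalized counts of each member (y axis, from 0) in every mouse of the TH experiment by group (x axis), wild-type mice in blue and BATKO mice in red, with bars for the mean ± SD, cut at 0 where they would pass it. Atf5 in the 4 wild-type mice at 24 h lies between 2050.3 and 4513, above every other mouse of the experiment.

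Among the mice at 24 h, mouse B27 stood apart: it had the highest value of its group in 8 of the 9 members and the lowest in 1, Ddit3. Its share of mitochondrially encoded reads, 40.5%, was also the lowest of the 20 wild-type mice, against 44.8 to 52.5% in the other mice at 24 h and 47.3 to 55.7% in the PTU mice, and the part of this in its values was not tested. Values at 24 h are therefore given with and without this mouse where it decides a call.

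Atf5, a relative of ATF4 that is translated in the same manner and acts in the mitochondrial stress response, showed the largest fold change among the members at 24 h. Its normalized counts in wild-type PTU mice were 592, 456, 584 and 728, and at 24 h they were 2383, 2266, 4513 and 2050.3. All 4 treated mice were above all 4 PTU mice, and the highest was B27. Atf5 rose 4.75-fold on average (log2 fold change 2.25 ± 0.22 SE, n = 4 per group, edgeR adjusted p = 1.33e-07), and with any single mouse left out the log2 fold change lay between 1.92 and 2.37.

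The earlier time points of Atf5 were much lower than the last. At 3 h the mice had 816, 1147, 1049 and 945, which did not overlap the PTU mice, and Atf5 rose by 0.72 ± 0.21 on the log2 scale (edgeR adjusted p = 0.035). At 6 h the counts were 845, 645, 753 and 875 (log2 fold change 0.39 ± 0.21, adjusted p = 0.197). At 12 h they were 721, 581, 802 and 983 (0.40 ± 0.21, adjusted p = 0.184), so that both groups overlapped the PTU mice. The call at 3 h was lost without mouse B2, B3 or B4 of the PTU group or B8, B9 or B11 of the 3 h group (log2 fold change 0.62 to 0.74, adjusted p 0.059 to 0.122), and in the fit of all 30 mice (0.75, adjusted p = 0.0668).

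Ddit3, which encodes CHOP, a transcription factor of prolonged stress, was the only member called at 6 h and 24 h in the upward direction. The PTU mice had 176, 172, 222 and 135 normalized counts. At 6 h the mice had 395, 394, 380.2 and 396, a group far tighter than the PTU mice and wholly above them. Ddit3 rose 2.19-fold at 6 h (1.13 ± 0.21 on the log2 scale, edgeR adjusted p = 0.000532).
At 12 h the counts of Ddit3 were 189, 220.1, 169 and 345, inside the PTU range except for 1 mouse (0.38 ± 0.21, adjusted p = 0.203). With a mouse left out the 12 h value ran from 0.13 (without the 12 h mouse B23) to 0.51. At 24 h they were 486, 321, 234 and 340.4, again above all PTU mice, with B27 the lowest. Ddit3 rose 1.95-fold (0.96 ± 0.21, edgeR adjusted p = 0.0013). At 3 h it had 264, 176, 213 and 189.6 (0.23 ± 0.21, adjusted p = 0.526).

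Atf4 itself, the central factor of the pathway, passed the test only at 24 h among the 4 time points. The PTU mice had 1024, 1123, 1403 and 1694 normalized counts, and the mice at 24 h had 1481, 1923, 2984 and 1834. The groups overlapped, since the highest PTU mouse exceeded the lowest treated mouse. Atf4 rose 1.56-fold (0.65 ± 0.19 on the log2 scale, edgeR adjusted p = 0.0137), and the call was lost without B27 (0.41, adjusted p = 0.073) or without PTU mouse B2 (0.54, adjusted p = 0.054). At 3, 6 and 12 h, the counts of Atf4 ranged from 981 to 1635 and the log2 fold changes from -0.05 to 0.15.

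Asns, which makes asparagine from aspartate and is a textbook target of ATF4, moved in the opposite direction to Atf5. The PTU mice had 849.8, 982, 759 and 986 normalized counts, the 3 h mice 668, 657, 659 and 514 and the 6 h mice 534, 655, 612 and 636. Every treated mouse at both times was below every PTU mouse. Asns fell by 0.54 ± 0.15 on the log2 scale at 3 h (edgeR adjusted p = 0.027) and by 0.57 ± 0.15 at 6 h (adjusted p = 0.00897), and the 6 h call held with each mouse left out in turn. At 3 h the call was lost without PTU mouse B3 or B5 or the 3 h mouse B11 (-0.49 to -0.46, adjusted p 0.081 to 0.090).
At 12 h Asns had 812, 689, 766 and 829 (-0.20 ± 0.15, adjusted p = 0.36). At 24 h the counts were 569, 663, 952 and 515, with 3 mice below the PTU range and B27 inside it, and Asns fell by 0.41 ± 0.15 (edgeR adjusted p = 0.0426). This call was lost without any one of the PTU mice B2, B3 and B5 or the treated mice B24, B26 and B28 (-0.43 to -0.29, adjusted p 0.055 to 0.154). Over all 8 fits with a mouse left out, the value of Asns at 24 h ran from -0.62 to -0.29.

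Mthfd2, a mitochondrial enzyme of the folate cycle, had 25.1, 25.1, 21.6 and 40.3 normalized counts in the PTU mice and 39.9, 30.1, 161 and 29.7 at 24 h. The rise of 1.24 ± 0.44 on the log2 scale (edgeR adjusted p = 0.0353) rested on mouse B27, without which the log2 fold change was 0.25 (adjusted p = 0.574). The call was also lost without PTU mouse B2, B3 or B4 (1.12 to 1.20, adjusted p 0.079 to 0.087). At 3, 6 and 12 h the log2 fold changes of Mthfd2 were 0.25, 0.12 and 0.13.

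Psat1, which forms phosphoserine in serine synthesis, had 45.2, 40.7, 50.6 and 31.1 normalized counts in PTU mice and 13.7, 20.1, 51.6 and 40.5 at 24 h (-0.38 ± 0.28, edgeR adjusted p = 0.315). The treated mice were spread on both sides of the PTU range. With a mouse left out the value of Psat1 ran from -0.72 to -0.15, without a call. Trib3, a pseudokinase that restrains ATF4 and CHOP, had 12.1 to 35.7 counts in PTU mice and 44.9, 26.4, 77.9 and 23.4 at 24 h, and it did not pass the test (0.79 ± 0.35, adjusted p = 0.0946). The value of Trib3 was 0.32 without B27 (adjusted p = 0.511), and it passed without the 24 h mouse B28 (1.01, adjusted p = 0.036). Chac1, which degrades glutathione, was just below the filter, with a mean of 9.71 normalized counts on the scale of the 20 wild-type mice fitted. On the scale of the whole experiment it had 6.03 to 8.06 counts in PTU mice and 7.49, 15.1, 29.2 and 16.2 at 24 h. Without the filter its log2 fold change was 1.30 ± 0.48 (adjusted p = 0.0560). Phgdh, which opens serine synthesis, lay between 0 and 12.7 counts in all wild-type mice.

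In BATKO mice on PTU, TH for 24 h changed 0 of the 8 tested members in edgeR. None of them had an unadjusted p under 0.05 and DESeq2 called 0, and over the 14178 genes tested edgeR called 0%, with 673 genes at an unadjusted p under 0.05. Atf5 had 681, 931, 1133, 533 and 583 normalized counts in BATKO PTU mice and 1069.9, 703, 1210.2, 536 and 642 after TH. The groups overlapped almost fully, with a log2 fold change of 0.11 ± 0.23 (adjusted p = 0.987). Ddit3 had 268, 272, 326, 388 and 313 before and 340.4, 329.6, 308, 381 and 314 after TH (0.10 ± 0.17, adjusted p = 0.986). These values of Ddit3 were above those of the wild-type PTU mice in every BATKO mouse, a comparison of levels that was not tested.
Atf4 had 731, 926, 655, 687 and 525 in BATKO PTU mice and 759, 944, 756, 595 and 989.9 after TH (0.20 ± 0.18, adjusted p = 0.97), all below the lowest wild-type PTU mouse but not tested against it. Asns had 365 to 539 counts before and 377 to 516 after TH (-0.06 ± 0.13, adjusted p = 0.986). The summed level of the brown adipocyte markers was 3123 to 3856 CPM in BATKO PTU mice and 2865 to 5069 CPM after TH, against 8741 to 10392 CPM in wild-type PTU mice and 9153 to 16392 CPM in wild-type mice at 24 h. In wild-type mice at 24 h, single markers moved in opposite directions, as given above, which the sum does not show. The part of the sum in these level differences was not tested.

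The difference between the genotypes in the 24 h response was tested directly. It passed for 2 of 8 tested members, both with a smaller response in BATKO, while 7.15% of 14178 genes had a lower and 5.12% a higher response in BATKO. For Atf5 the response of BATKO minus that of wild type was -2.14 ± 0.34 on the log2 scale (edgeR adjusted p = 0.000152). For Ddit3 it was -0.87 ± 0.25 (adjusted p = 0.0232), and the call was lost without wild-type PTU mouse B5 (-0.76, adjusted p = 0.052) or the 24 h mouse B24 (-0.66, adjusted p = 0.065). The differences for Mthfd2 (-1.19 ± 0.55, adjusted p = 0.158), Atf4 (-0.45 ± 0.26, adjusted p = 0.273) and Asns (0.34 ± 0.20, adjusted p = 0.272) did not pass the test. Without B27 they were -0.20 for Mthfd2 and -0.22 for Atf4, and that of Asns passed (0.56, adjusted p = 0.0368). The 24 h response also differed between the genotypes for 3 of the 6 brown adipocyte markers (Adipoq, Cidea and Plin1), and their part in these differences was not tested.

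Phgdh had its highest group mean of the series in BATKO PTU mice (24.7 normalized counts). These mice had 11.5, 24.3, 5.03, 50.8 and 31.8, and those after TH 10.5, 21.3, 11.5, 33.0 and 7.97 (-0.53 ± 0.42, edgeR adjusted p = 0.967). The lowest mice of both BATKO groups lay within the 0 to 12.7 counts of wild-type mice. Phgdh passed the filter only with the BATKO mice included, with a mean of 5.71 in the wild-type fit and 10.9 over the whole experiment. Its counts are uncertain, since 56.3% of its 31-base words are shared with other genes. Trib3 varied among BATKO mice more than among wild-type mice, from 26.9 to 115 before and from 27.3 to 172 after TH (0.59 ± 0.36, adjusted p = 0.963). With a mouse left out the value of Trib3 ran from 0.23 to 0.95. Chac1, below the filter in this experiment, had a log2 fold change of 1.45 ± 0.56 for TH in BATKO mice without the filter (unadjusted p = 0.0116, edgeR adjusted p = 0.84). Neither Phgdh nor Trib3 separated the treated from the untreated BATKO mice.

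Cold exposure changed 3 of 8 tested members in CTRL mice, 2 upwards (Atf5, Mthfd2) and 1 downwards (Psat1), while 26.5% of the 13267 genes tested were higher and 22.6% lower. In BATKO mice it changed 4 of 8, with Atf5, Asns and Mthfd2 higher and Ddit3 lower, against 21.4% and 18.9% of genes. The shares of members called were thus near or below those of all genes, except for the members higher in BATKO, which numbered 3 of 8. The median log2 fold change over the tested members was 0.02 in CTRL and -0.24 in BATKO, beside -0.01 and -0.02 over all genes, and with a mouse left out it ran from -0.06 to 0.07 and from -0.28 to -0.12. Markers of brown adipocytes and of red blood cells moved with temperature. In CTRL mice 5 of 6 brown adipocyte markers were higher and 1 lower at 4 °C (median log2 fold change 1.95), and in BATKO mice 5 of 6 were higher (median 1.03), where their sum was 2434 to 3591 CPM at 30 °C and 9860 to 17497 CPM at 4 °C. The sum of the red blood cell markers was 152 to 282 CPM at 30 °C and 669 to 1449 CPM at 4 °C in CTRL mice, and 149 to 444 and 701 to 970 CPM in BATKO mice (2 of 3 markers, Alas2 and Hbb-bs, passed the test in both genotypes). The part of either list in these results was not tested.

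**Figure D2:**
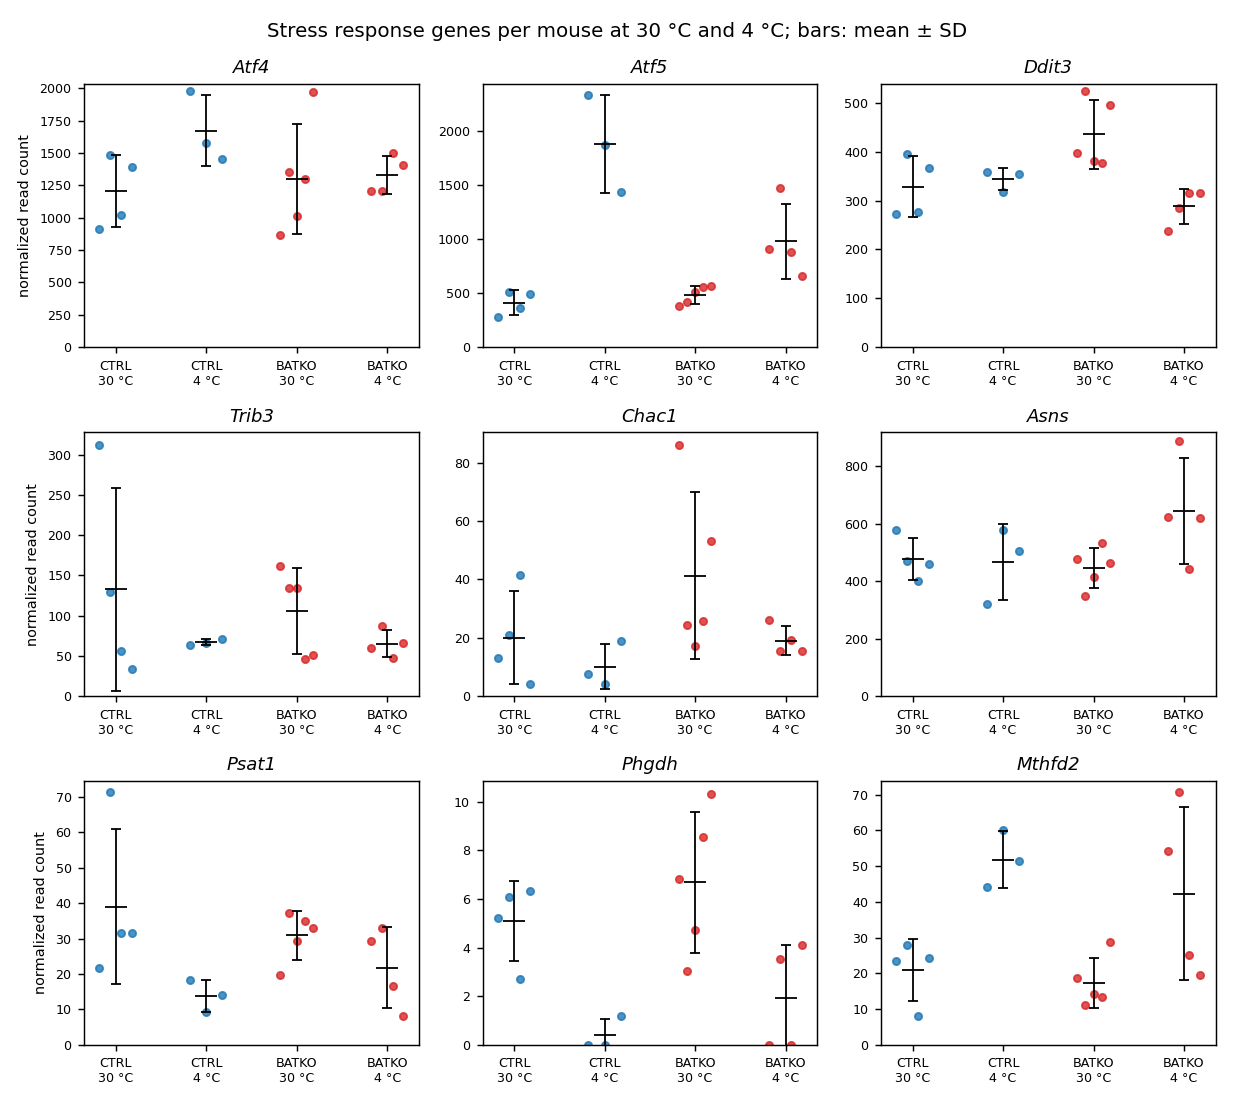
Normalized counts of each member (y axis, from 0) in every mouse of the temperature experiment by genotype and temperature (x axis), CTRL in blue and BATKO in red, with bars for the mean ± SD, cut at 0 where they would pass it. Atf5 at 4 °C lies between 1435 and 2337 in CTRL mice and between 661 and 1476 in BATKO mice, above the mice of the same genotype at 30 °C.

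Atf5 was the member with the lowest adjusted p in the cold too. CTRL mice had 278, 515, 362 and 494 normalized counts at 30 °C and 2337, 1869.9 and 1435 at 4 °C, and the groups were far apart. Atf5 rose 4.56-fold (2.19 ± 0.26 on the log2 scale, n = 4 and 3, edgeR adjusted p = 5.54e-06). BATKO mice had 377, 414, 509, 561 and 563 at 30 °C and 910.4, 1476, 879 and 661 at 4 °C, again without overlap, and Atf5 rose 2.02-fold (1.02 ± 0.23, n = 5 and 4, adjusted p = 0.00224).
The genotypes were compared next. At 4 °C the highest BATKO mouse exceeded the lowest CTRL mouse, and the BATKO level differed by -0.94 ± 0.26 on the log2 scale from that of CTRL (edgeR adjusted p = 0.0691), where 1.20% of genes were lower and 0.957% higher in BATKO. The difference of the cold responses of Atf5 was -1.17 ± 0.35 (adjusted p = 0.0908), where the response of 0.807% of genes was lower and that of 0.317% higher in BATKO. In DESeq2, both differences of Atf5 were past the threshold (-0.97, adjusted p = 0.0106, and -1.18, adjusted p = 0.0246), where DESeq2 called 3.30% of genes lower and 1.58% higher for the level at 4 °C, and 4.24% and 1.79% for the difference of the responses. In edgeR, 0 of 8 members passed in either comparison, with 1 at an unadjusted p under 0.05 for the level at 4 °C (Atf5) and 2 for the difference of the responses (Atf5, Ddit3), and DESeq2 called 1 in each. At 30 °C, 0 of 8 passed in edgeR, 1 had an unadjusted p under 0.05 (Ddit3) and DESeq2 called 0, against 0.00754% of genes higher and 0% lower in BATKO.

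Mthfd2 had 23.4, 27.8, 8.13 and 24.3 normalized counts in CTRL mice at 30 °C and 44.2, 60.1 and 51.3 at 4 °C. All cold mice were above all mice at 30 °C, and Mthfd2 rose 2.47-fold (1.30 ± 0.44 on the log2 scale, edgeR adjusted p = 0.0219). In BATKO mice it had 18.8, 11.1, 14.2, 13.3 and 28.7 at 30 °C and 54.1, 70.6, 25.1 and 19.4 at 4 °C, with overlap, and it rose 2.41-fold (1.27 ± 0.39, adjusted p = 0.0172). In CTRL the call was lost without mouse 2 at 4 °C (1.19, adjusted p = 0.069) or mouse 21 at 30 °C (1.04, adjusted p = 0.058), and in BATKO without mouse 7 (1.11, adjusted p = 0.055) or mouse 8 (0.90, adjusted p = 0.098) at 4 °C.

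Psat1 had 21.7, 71.3, 31.6 and 31.7 normalized counts in CTRL mice at 30 °C and 18.4, 9.35 and 14.0 at 4 °C. The cold mice were all lower, and Psat1 fell by 1.48 ± 0.47 on the log2 scale (edgeR adjusted p = 0.016). The call was lost without mouse 2 at 4 °C (-1.25, adjusted p = 0.073) or mouse 20 at 30 °C (-1.01, adjusted p = 0.070). In BATKO mice it had 19.6 to 37.3 at 30 °C and 29.2, 33.0, 16.7 and 8.18 at 4 °C (-0.51 ± 0.39, adjusted p = 0.318).

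Asns and Ddit3 passed the test for cold in BATKO mice and not in CTRL mice, but neither difference between the genotypes passed. Asns had 477, 349, 415, 533 and 462 normalized counts in BATKO mice at 30 °C and 624, 890.1, 443 and 621 at 4 °C, with 1 cold mouse inside the range of 30 °C. It rose 1.44-fold (0.53 ± 0.20 on the log2 scale, edgeR adjusted p = 0.0418), a call lost without mouse 7, 8 or 12 at 4 °C or mouse 13, 14, 15 or 17 at 30 °C (0.32 to 0.55, adjusted p 0.052 to 0.206). In CTRL mice Asns had 579, 471, 401 and 461 at 30 °C and 320.1, 578 and 505 at 4 °C (-0.03 ± 0.23, adjusted p = 0.918). The difference of the responses of Asns was 0.56 ± 0.30 (adjusted p = 0.334).
Ddit3 had 398, 525, 380.3, 377 and 497 normalized counts in BATKO mice at 30 °C and 238, 285, 315 and 315 at 4 °C, without overlap. It fell by 0.60 ± 0.15 on the log2 scale (edgeR adjusted p = 0.00405). In CTRL mice it had 273, 396, 277 and 367 at 30 °C and 359, 318 and 355 at 4 °C (0.07 ± 0.17, adjusted p = 0.75). The difference of the responses of Ddit3 was -0.66 ± 0.22 (adjusted p = 0.118).

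Atf4 showed no call in the cold. CTRL mice had 917, 1487, 1025 and 1390.2 normalized counts at 30 °C and 1981, 1576 and 1458 at 4 °C (0.47 ± 0.24 on the log2 scale, edgeR adjusted p = 0.107). BATKO mice had 869, 1349.9, 1011, 1297 and 1975 at 30 °C and 1204, 1207, 1497 and 1411 at 4 °C (0.03 ± 0.21, adjusted p = 0.917). The spread at 30 °C was wide in both genotypes. Trib3 spread even more, with 312, 129, 56.0 and 33.8 in CTRL mice at 30 °C against 63.8, 65.4 and 71.2 at 4 °C (-0.99 ± 0.59, adjusted p = 0.173). Without mouse 19 at 30 °C the value of Trib3 was -0.13 (adjusted p = 0.842). Phgdh, below the filter here, had 2.71 to 6.34 normalized counts in CTRL mice at 30 °C and 0, 0 and 1.17 at 4 °C. Without the filter it was called lower in CTRL mice (edgeR adjusted p = 0.0252), but at 0 or 1 counted read per cold mouse the size of the fitted change depends on the prior count, and the counts of Phgdh are uncertain.

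Chac1 did not pass the test in either genotype (log2 fold change -0.97 ± 0.71 in CTRL, edgeR adjusted p = 0.266, and -1.13 ± 0.55 in BATKO, adjusted p = 0.117). With a mouse left out the values of Chac1 ran from -1.80 to -0.34 (without mouse 21 at 30 °C) in CTRL and from -1.32 to -0.67 (without mouse 13 at 30 °C) in BATKO. Its highest values were found in mice with high skeletal muscle markers. BATKO mouse 13 at 30 °C had 86.1 normalized counts of Chac1 and a muscle marker sum of 7333 CPM, and mouse 17 of the same group had 53.0 and 8134 CPM. CTRL mouse 21 at 30 °C had 41.6 and 4574 CPM, whereas the muscle sum at 4 °C was 143 to 612 CPM in CTRL mice and 21.0 to 1639 CPM in BATKO mice. Other mice at 30 °C had little muscle signal, with Chac1 inside the range of the cold mice of their genotype. BATKO mouse 14 had 24.2 counts and 11.1 CPM, BATKO mouse 15 had 17.0 and 13.4 CPM, and CTRL mouse 19 had 13.0 and 9.02 CPM. Over the 59 mice, with log values centred within groups, the correlation of Chac1 with this sum was 0.58. The part of muscle in the values of Chac1 was not tested.

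**Figure D3:**
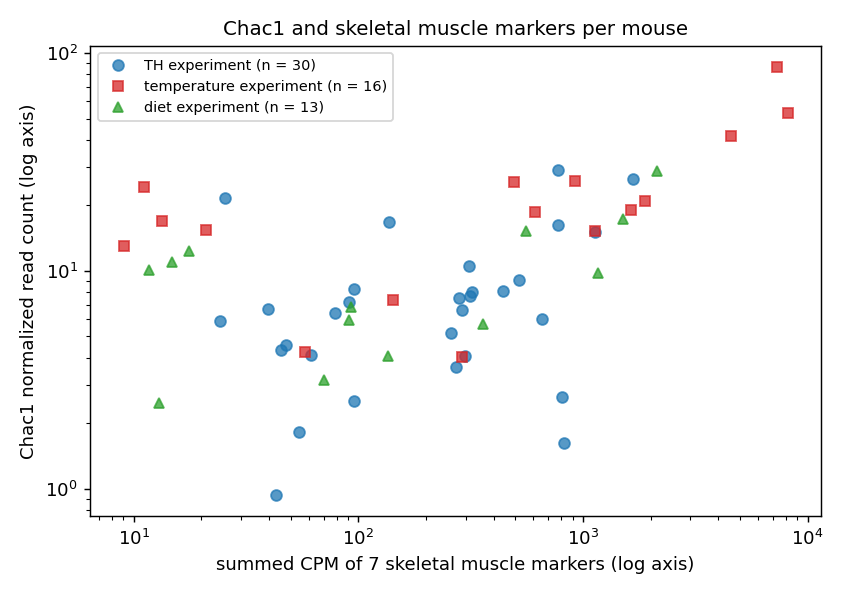
Normalized count of Chac1 (y axis, log scale) against the summed CPM of 7 skeletal muscle markers (x axis, log scale), 1 point for each of the 59 mice, with circles for the TH, squares for the temperature and triangles for the diet experiment. The mice with 86.1 and 53.0 counts of Chac1 are those with 7333 and 8134 CPM of muscle markers.

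The high-fat diet changed 0 of 8 tested members in CTRL mice in edgeR (1, Psat1, at an unadjusted p under 0.05, and 0 called by DESeq2), where 1.89% of the 12932 genes tested were higher and 2.04% lower. In BATKO mice 0 of 8 passed (0 at an unadjusted p under 0.05, 0 by DESeq2), where 0.0309% of genes were higher and 0.0387% lower in edgeR and DESeq2 called 117 of 10810 genes higher and 131 lower. In edgeR, 0% of the genes passed between the genotypes on HFD, on chow (2 BATKO mice) and for the difference of the responses, with 691, 1024 and 740 genes at an unadjusted p under 0.05. Over all genes, DESeq2 called 5 higher and 4 lower in BATKO on HFD, 31 higher and 0 lower on chow, and 0 for the difference. The members with an unadjusted p under 0.05 numbered 0, 2 (Chac1, Psat1) and 1 (Psat1), with 0 called by DESeq2 in each.

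The mean level of Atf4 per kilobase was 73.1 to 105 CPM per kb in the 4 groups of the diet experiment and 22.8 to 66.6 in the other groups, but the experiments were normalized separately and this difference was not tested. CTRL mice on chow had 1706, 2688, 1745 and 1766 normalized counts of Atf4, and on HFD 909, 1203, 2246 and 1612 (-0.40 ± 0.25 on the log2 scale, edgeR adjusted p = 0.36). With a mouse left out the value of Atf4 ran from -0.68 to -0.22 (without chow mouse 2). Atf5 had 274, 280.2, 272 and 232 on chow and 151, 326, 263 and 290.5 on HFD in CTRL mice (-0.04 ± 0.18, adjusted p = 0.923), with a wider spread on HFD. Psat1 had 44.9, 27.3, 27.9 and 23.6 on chow and 33.0, 32.6, 97.2 and 48.0 on HFD in CTRL mice (0.77 ± 0.32, adjusted p = 0.184, and 0.28 without HFD mouse 10, which had the 97.2), and 60.7 and 53.7 on chow in BATKO mice.

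Per kilobase, the order of Atf4 and Atf5 differed between groups. Atf4 was above Atf5 in wild-type PTU mice and in both genotypes at 30 °C, while Atf5 averaged 107 ± 44.0 CPM per kb (SD, n = 4) against 66.6 ± 21.0 for Atf4 in wild-type mice at 24 h, and 86.8 ± 20.8 against 65.2 ± 10.7 in CTRL mice at 4 °C (n = 3). In BATKO mice on PTU, Atf5 averaged 29.6 ± 9.71 and Atf4 22.8 ± 4.71 (n = 5). Within mice, Atf5 exceeded Atf4 in 4 of 4 wild-type mice at 24 h, in 3 of 3 CTRL mice at 4 °C and in 4 of 5 BATKO PTU mice, against 0 of 4 wild-type PTU mice and 0 of 4 CTRL and 0 of 5 BATKO mice at 30 °C. In BATKO mice at 4 °C it did so in 1 of 4 and in BATKO mice after TH in 3 of 5, in wild-type mice at 3 h in 1 of 4, and in the groups at 6 and 12 h and all groups of the diet experiment in 0 mice. The order was not tested.

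**Figure D4:**
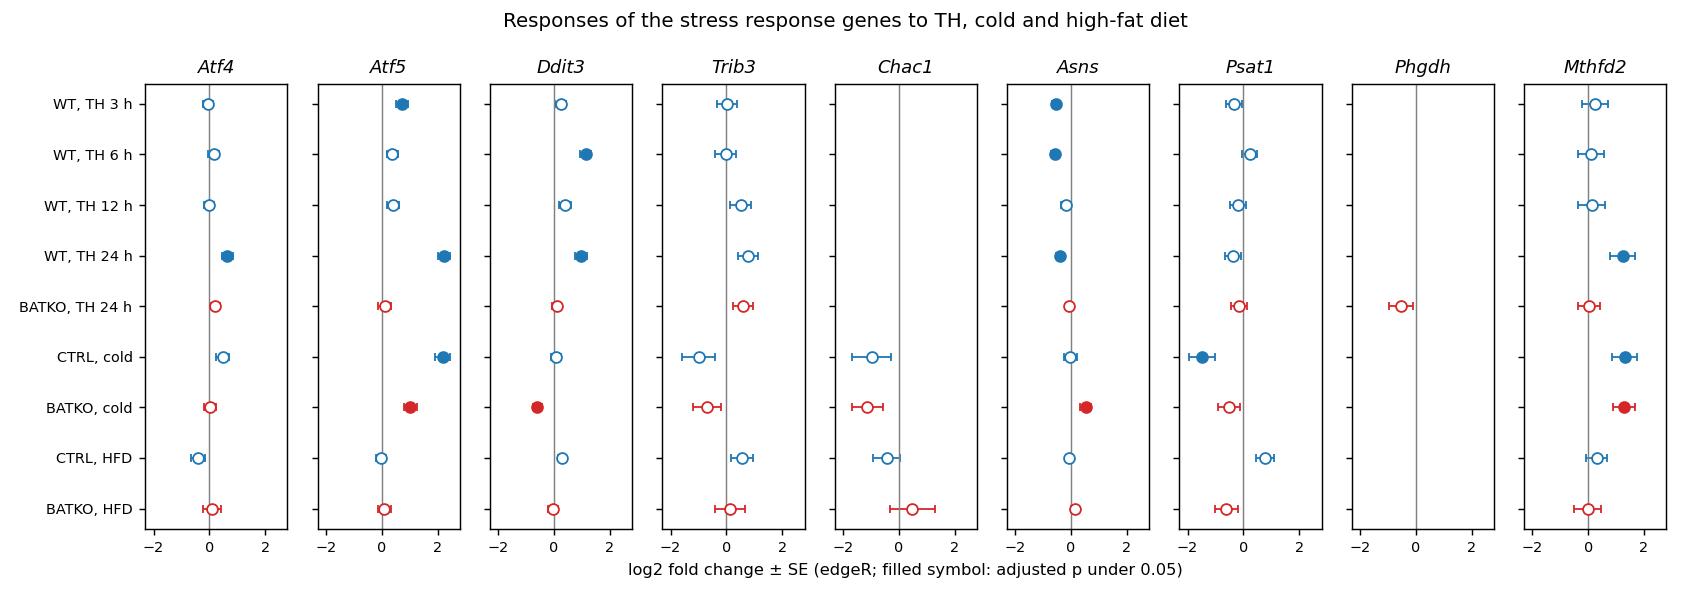
Log2 fold change ± SE of each tested member (1 panel per gene, x axis) in 9 comparisons (y axis), wild-type and CTRL in blue and BATKO in red, with filled points for an edgeR adjusted p under 0.05 and no point for a gene below the filter. Atf5 has the highest fold changes, 2.25 for TH at 24 h in wild-type mice and 2.19 for cold in CTRL mice.

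The other genes of the pathway were followed through 7 lists with 67 genes, chosen with earlier results of these data known. In wild-type mice, 5 of 54 tested genes were higher and 2 lower at 3 h. The numbers were 15 and 3 at 6 h, 16 higher with 6 lower at 12 h, and 22 higher with 4 lower at 24 h. Over all genes, 5.10, 12.1, 13.6 and 17.2% were higher and 4.09, 10.9, 12.1 and 15.5% lower at these times. The share of pathway genes called higher was above that of all genes at each time. Since the lists were chosen with earlier results known, such shares are a description, here and below, and no test. At 3 h the number called in both directions ran from 2 (without PTU mouse B3 or the 3 h mouse B9) to 7 with a mouse left out.

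Aminoacyl-tRNA synthetases, which charge tRNAs with amino acids, had 0 of 12 genes called at 3 h, 3 higher at 6 h, 4 at 12 h and 9 at 24 h, with none lower, against 17.2% of all genes higher and 15.5% lower at 24 h. Yars, the tyrosine enzyme, had 89.6, 98.8 and 114 normalized counts as the lowest, median and highest PTU mouse and 194, 229 and 244 at 24 h, and it rose by 1.16 ± 0.12 on the log2 scale (edgeR adjusted p = 1.65e-07). Iars rose by 0.71 ± 0.12 and Cars by 0.79 ± 0.20. The median log2 fold change of the 12 synthetases at 24 h was 0.43, beside 0.01 over all genes. At 3 h, where the synthetases had 0 calls in edgeR, Yars ranged from 106 to 114.

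Among the amino acid and folate enzymes, 5 of 9 tested were higher and 2 lower at 24 h, against 17.2% and 15.5% of all genes. Psph, which completes serine synthesis after Phgdh and Psat1, had 136 to 185 normalized counts in PTU mice and 377 to 463 at 24 h, without overlap, and rose by 1.46 ± 0.15 on the log2 scale (edgeR adjusted p = 1.96e-07). Shmt1, which passes carbon from serine to folate in the cytosol, rose by 0.99 ± 0.18 at 6 h, 1.57 ± 0.19 at 12 h and 1.10 ± 0.19 at 24 h. Gpt2, a mitochondrial alanine transaminase, rose by 0.95 ± 0.18 at 24 h. Psph and Shmt1 thus passed the test where Psat1 did not.

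Over all genes, 17.2% were higher and 15.5% lower at 24 h. Of the bZIP partners, 3 of 5 tested were higher: Cebpb (1.24 ± 0.27), Cebpg (0.57 ± 0.10) and Jdp2 (1.10 ± 0.23). Cebpg, which forms heterodimers with ATF4, was already higher at 3 h (0.48 ± 0.10, edgeR adjusted p = 0.00275). Of the kinases and their activators, 2 of 7 were higher and 0 lower at 24 h. They were Eif2ak3, the kinase PERK of the endoplasmic reticulum (0.51 ± 0.17), and Dele1, which relays mitochondrial stress (0.31 ± 0.11). Oma1, the protease upstream of DELE1, was lower at 3 h (-0.62 ± 0.18), 6 h (-0.77 ± 0.18) and 12 h.

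The remaining lists at 24 h are read against the same 17.2% of all genes higher and 15.5% lower. Of the eIF2, eIF2B and phosphatase subunits, 1 of 9 was higher at 24 h (Eif2b4, 0.70 ± 0.12) and 1 lower (Ppp1r15b, -0.81 ± 0.18), which directs eIF2 dephosphorylation, both below the shares of all genes. Of the transporters, 2 of 5 were higher, Slc1a5 (1.10 ± 0.22) and Slc38a2 (0.77 ± 0.25), both importers of neutral amino acids. Of the stress outputs, 0 of 7 were higher and 1 lower, Eif4ebp1 (-0.73 ± 0.17), an inhibitor of cap-dependent translation. Sesn2, an inhibitor of mTORC1, had 88.4 to 149 normalized counts in PTU mice and 43.5 to 81.9 at 6 h and fell by 1.07 ± 0.34 on the log2 scale (edgeR adjusted p = 0.0287).

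In BATKO mice after TH, 0 of 56 tested pathway genes passed in edgeR, 0 had an unadjusted p under 0.05 and DESeq2 called 0. Over all genes, 0% passed for TH in BATKO mice. The difference of the responses passed for 9 of 56, 8 with a lower response in BATKO and 1 higher, against 7.15% of all genes lower and 5.12% higher. With a mouse left out the number ran from 5 (without wild-type PTU mouse B3 or BATKO PTU mouse 3) to 13. The lower ones included Psph (-1.68 ± 0.24, edgeR adjusted p = 3.86e-05), Yars (-1.19 ± 0.17, adjusted p = 5.26e-05), Shmt1 (-1.04 ± 0.24), Cebpb (-1.12 ± 0.37) and Cebpg (-0.49 ± 0.13).

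**Figure D5:**
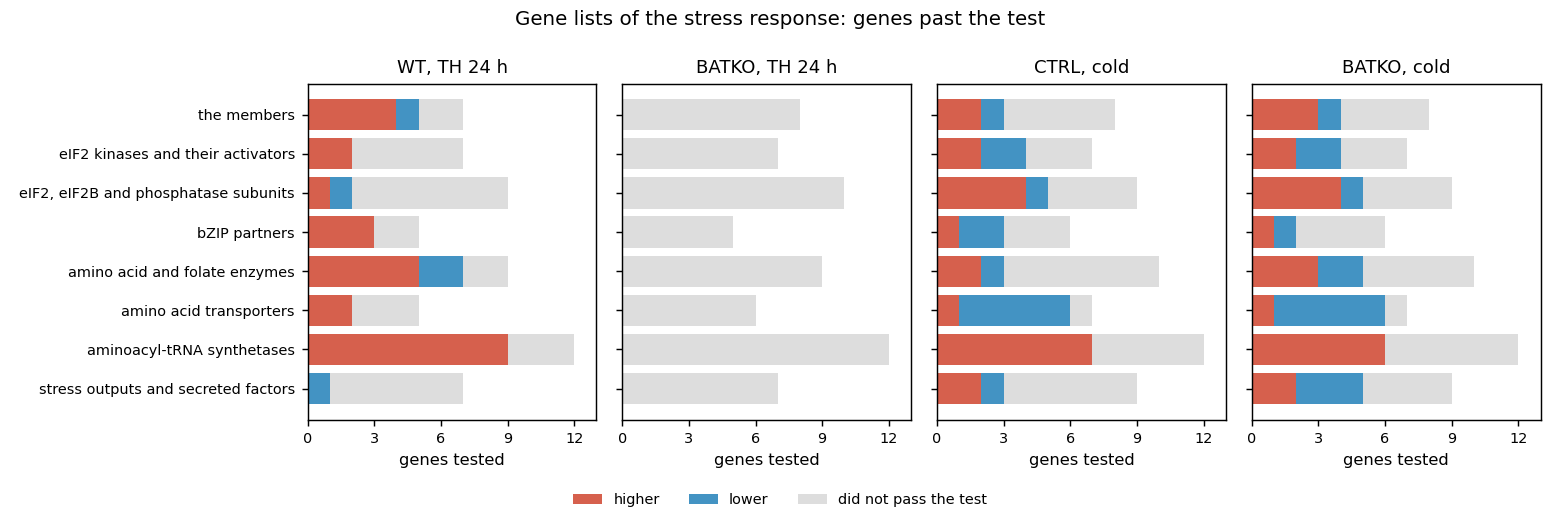
Number of tested genes of each list (x axis, genes) that were higher, lower or not past the test, for TH at 24 h in wild-type and BATKO mice and for cold in CTRL and BATKO mice. The synthetases have 9 higher genes of 12 for TH in wild-type mice, none in BATKO mice, and 7 and 6 for cold in CTRL and BATKO mice.

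In the cold, 19 of 60 tested pathway genes were higher and 12 lower in CTRL mice, and 19 and 14 in BATKO mice. Over all genes, 26.5% were higher and 22.6% lower in CTRL mice, so that the pathway genes were near this background, and 21.4% and 18.9% in BATKO mice, where both shares of the pathway genes were above it. Synthetases were again called in 1 direction, with 7 of 12 higher in CTRL and 6 of 12 in BATKO mice. Their median log2 fold changes were 0.67 and 0.34, beside -0.01 and -0.02 over all genes. Gars, the glycine enzyme, had 448 to 624 normalized counts in CTRL mice at 30 °C and 1504 to 2166 at 4 °C and rose by 1.78 ± 0.14 on the log2 scale (edgeR adjusted p = 1.51e-07). In BATKO mice it had 489 to 581 and 1426 to 1779 and rose by 1.56 ± 0.13 (adjusted p = 3.93e-07). The groups were far apart in both genotypes.

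Of the transporters, 5 of 7 tested were lower and 1 higher in the cold in each genotype, against 22.6% of all genes lower and 26.5% higher in CTRL mice and 18.9% and 21.4% in BATKO mice. The higher one was Slc3a2, the heavy chain shared by several amino acid exchangers, which had 347 to 504 normalized counts in CTRL mice at 30 °C and 1840.3 to 2864 at 4 °C (2.48 ± 0.26 on the log2 scale, edgeR adjusted p = 1.5e-06). In BATKO mice it had 958 to 1304 at 4 °C, below every CTRL mouse, and the response of Slc3a2 was smaller by -1.47 ± 0.34 (adjusted p = 0.0486). The response of Yars differed by -0.92 ± 0.18 (adjusted p = 0.0313). These were the 2 of 60 tested pathway genes that passed for the difference of the cold responses, where 0.807% of all genes were lower. The number called was 0 in 10 of the 16 fits that left out a mouse, 1 in 3, 2 in 2 and 6 in 1 (without CTRL mouse 5 at 4 °C), and it was 1 without the filter on low counts.

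Of the amino acid and folate enzymes, 2 of 10 were higher and 1 lower in CTRL mice in the cold, below the 26.5% and 22.6% of all genes. In BATKO mice the numbers were 3 and 2, against 21.4% and 18.9%. Psph rose by 1.43 ± 0.23 on the log2 scale in CTRL and by 1.30 ± 0.20 in BATKO mice, while Pck2, a mitochondrial enzyme that makes phosphoenolpyruvate, was lower in both (-1.84 ± 0.30 and -1.61 ± 0.26). Psat1 and Psph, neighbouring steps of serine synthesis, thus had calls of opposite sign in CTRL mice. Of the bZIP partners, Cebpg was higher in both genotypes (1.04 ± 0.14 and 0.59 ± 0.12) and Atf3 lower in both (-2.19 ± 0.69 and -2.01 ± 0.60).

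Of the kinases and their activators, 2 of 7 were higher and 2 lower in each genotype in the cold, against 26.5% and 22.6% of all genes in CTRL mice and 21.4% and 18.9% in BATKO mice, with Dele1 (0.83 ± 0.12 in CTRL) and Eif2ak1 (0.72 ± 0.14), the kinase that answers to DELE1, among the higher ones. Of the subunits, 4 of 9 were higher and 1 lower in each genotype. The lower one was Ppp1r15a, the stress-inducible phosphatase partner GADD34 (-1.18 ± 0.32 in CTRL and -1.10 ± 0.28 in BATKO).

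Of the stress outputs, 2 of 9 were higher and 1 lower in CTRL mice in the cold, below the 26.5% and 22.6% of all genes. In BATKO mice the numbers were 2 and 3, against 21.4% and 18.9%. Fgf21, a secreted hormone, had 0 to 1.06 normalized counts in CTRL mice at 30 °C and 22.7, 23.3 and 62.6 at 4 °C (edgeR adjusted p = 4.1e-06). In BATKO mice Fgf21 had 0 to 3.02 at 30 °C and 10.8 to 23.9 at 4 °C (adjusted p = 5.21e-05). Its groups did not overlap in either genotype. At 30 °C Fgf21 was below 10 counts in every mouse, so that it passed the filter only through the mice at 4 °C. Its p-values are therefore not read as support. Gdf15, a secreted stress signal, had 10.8 to 237 in CTRL mice at 30 °C and 14.0 to 18.4 at 4 °C, which did not pass the test (adjusted p = 0.0702), and 14.2 to 177 and 3.53 to 16.4 in BATKO mice, which did (-2.87 ± 0.90 on the log2 scale, adjusted p = 0.0182). The 30 °C groups of Gdf15 spread over more than a 10-fold range.

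On HFD, 1 of 59 tested pathway genes was higher (Mthfd2l, 0.51 ± 0.11 on the log2 scale) and 4 were lower in CTRL mice. With 1.89% of all genes higher and 2.04% lower, the single higher gene was at the background and the lower ones were above it. The lower ones were Atf3, with 284 to 587 normalized counts on chow and 50.3 to 122 on HFD (-2.45 ± 0.28, edgeR adjusted p = 0.000859), Ppp1r15a (-1.04 ± 0.15), Ppp1r15b (-0.57 ± 0.14) and Cebpb (-0.83 ± 0.13). In BATKO mice 0 of 59 passed in edgeR, 8 had an unadjusted p under 0.05 and DESeq2 called 3. Between the genotypes, 0 of 59 passed on HFD (5 at an unadjusted p under 0.05), on chow (4) and for the difference of the responses (4), with 0 called by DESeq2 in each.

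Over the 59 mice, with log2 CPM centred within each experiment, the genes whose pattern was most like that of Atf4 among 12274 genes were Yrdc (Pearson's r = 0.80), Arf6 (0.79), Slc38a2 (0.79), Cebpb (0.79) and Pip5k1a (0.78). Among the members, the correlation with Atf4 was 0.61 for Mthfd2 (rank 738), 0.53 for Atf5, 0.38 for Asns, 0.32 for Psat1, -0.08 for Ddit3 and -0.42 for Trib3. Differences between groups enter these values. Centred within groups, the correlation with Atf4 was 0.39 for Mthfd2, 0.48 for Atf5 and 0.43 for Psat1. It was 0.009 for Asns, 0.029 for Ddit3 and -0.18 for Trib3. Within groups, 22 of the 36 pairs of members had a positive correlation, with a median of 0.047 over the pairs. The mice share their library and depth across genes, and these correlations are a description.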

How the data were processed

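RNA from BAT of 59 mice was extracted with Trizol, converted with the total RNA SENSE kit (Lexogen) and sequenced on a NextSeq 500. The authors aligned reads to GRCm38 (mm10) with Bowtie (Bowtie2 2.3.2.2 in the submitters' processing notes, which also name DESeq2), removed reads with an alignment quality under 10 and deposited raw counts per gene from htseqcount, in 3 tables. The annotation and the strand setting are not given in the sources used here.

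Counts were tested with edgeR 4.0.16 (R 4.3.3, limma 3.58.1): library sizes scaled by TMM, a mean above 10 normalized counts on the scale of the mice fitted, quasi-likelihood F tests, and Benjamini-Hochberg adjustment over all genes tested with a threshold of 0.05. Fits were made of the 20 wild-type and of all 30 mice of the TH experiment, of the 16 temperature and of the 13 diet mice. SEs are the log2 fold change divided by the root of F. Normalized counts are TMM-scaled within an experiment, and CPM per kb uses exon lengths of GENCODE M21, which matched 55327 of 55341 symbols. The scripts were tested on simulated data. Alternatives were DESeq2 1.42.0, its size factors, the filter, mitochondrially encoded genes left out, the mice entering a fit, and each mouse left out.

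The members and lists were chosen with earlier results of these data known. Any member could be named in any comparison, and of the other lists at most the 3 genes with the smallest adjusted p per comparison. Fgf21, Gdf15, Atf3, Sesn2, Ddit4 and Ppp1r15a could be named beside these. For the differences of the responses, all list genes past the test are named among the flagged results. Ranges of other named genes in further comparisons, and Gm7901, were given after their values were seen.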

Additional observations from a re-analysis of the deposited data

Results flagged for a closer look

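Single mice stood far from the rest of their group in 7 of the 108 combinations of a member and a group of 4 or 5 mice, where the gap to the nearest mouse was taken as a share of the whole range of the group. Chance gives about 1 in 20, or 5.4 here. The share was 0.865 for Atf5 and 0.922 for Mthfd2 in mouse B27, the wild-type mouse at 24 h whose Mthfd2 count of 161 decided the call of that gene. It was 0.939 for Atf4 in CTRL mouse 2 on chow (2688 normalized counts), 0.928 for Asns in the wild-type 3 h mouse B11 (514), 0.904 for Ddit3 in the wild-type 6 h mouse B15 (380.2, in a group whose other mice had 394 to 396), 0.766 for Chac1 in BATKO PTU mouse 2 (7.69) and 0.836 for Phgdh in CTRL mouse 11 on HFD (6.70).

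The 24 h response to TH differed between BATKO and wild-type mice for 2 of 8 tested members and 9 other pathway genes. The calls are at an edgeR adjusted p under 0.05 for the difference, BATKO minus wild type, on the log2 scale. Over the 14178 genes tested, 7.15% had a lower and 5.12% a higher response in BATKO. The Ddit3 call was lost without wild-type PTU mouse B5 or the 24 h mouse B24. With a mouse left out, the number of other pathway genes called ran from 5 to 13. The difference was -2.14 for Atf5, -0.87 for Ddit3, -1.12 for Cebpb, -0.49 for Cebpg, -1.68 for Psph, -1.04 for Shmt1, -1.19 for Yars, -0.63 for Iars, -0.43 for Nars and -0.55 for Wars. It was 1.75 for Cth, which makes cysteine from cystathionine and was lower in wild-type mice at 24 h (-1.73 ± 0.39, edgeR adjusted p = 0.00184). The cold response differed between BATKO and CTRL mice for Slc3a2 (-1.47) and Yars (-0.92). Over the 13267 genes tested, 0.807% had a lower and 0.317% a higher cold response in BATKO. The number of pathway genes called for this difference was 0 in 10 of the 16 fits that left out a mouse.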

How the results depend on the processing

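Alternatives were DESeq2, its size factors, mitochondrially encoded genes left out, no filter, a mean above 50, the groups compared alone, the fit of 30 mice, and each mouse left out. No paired analysis was possible because within an experiment no number occurs in more than 1 group of a genotype, and a number found in both genotypes belongs to different mice. Called member values kept their direction in all of these and stayed past the threshold in 107 fits that left out no mouse and 129 that did, and missed it in 4 and 36. The 4 were Atf5 at 3 h, given above, and the fits of the compared groups alone for Asns at 24 h (-0.39, edgeR adjusted p = 0.133), Mthfd2 at 24 h (1.26, adjusted p = 0.0989) and Asns for cold in BATKO (0.52, adjusted p = 0.0511). The cause of the changes was not tested. Chac1, Phgdh, Trib3, Psat1 and Mthfd2 had the lowest counts of the members, and the part of depth in their values was not tested.

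Numbers of members called changed as follows. At 3 h, 1 was called in the fit of 30 mice, and 0 to 2 with a mouse left out (0 without PTU B3 or 3 h B11, 1 without PTU B2, B4 or B5 or 3 h B8 or B9). At 24 h the range was 2 to 5 (2 without PTU B2, 3 without PTU B3 or 24 h B27), for the difference of the TH responses 1 to 3 (1 without wild-type PTU B5 or 24 h B24), for cold in CTRL 1 to 3 (1 without mouse 2 at 4 °C, 1 with a mean above 50, and 4 without the filter, which adds Phgdh) and for cold in BATKO 2 to 4 (2 without mouse 7 or 8 at 4 °C). Between genotypes at 4 °C, 1 was called by DESeq2 and 1 without the filter, and 0 to 1 with a mouse left out (1 without BATKO 8 or CTRL 5). For the difference of the cold responses, 1 was called by DESeq2 and 0 to 1 with a mouse left out (1 without CTRL 5 at 4 °C).

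Numbers of other pathway genes called ranged with a mouse left out from 2 to 7 at 3 h, 5 to 13 for the difference of the TH responses (5 without wild-type PTU B3 or BATKO PTU 3), 0 to 3 between genotypes at 4 °C, 0 to 6 for the difference of the cold responses (6 without CTRL 5 at 4 °C) and 3 to 7 for HFD in CTRL. Without the filter, 1 was called between genotypes at 4 °C, 1 for the difference of the cold responses, 9 for HFD in CTRL, 3 for HFD in BATKO, 1 between genotypes on chow and 1 for the difference of the HFD responses. DESeq2 called 3 for HFD in BATKO, and the fit of the compared groups called 1 between genotypes at 4 °C.

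The log2 fold change of 37 values that were not called changed sign with a mouse left out, and none of these passed the threshold. At 3 h the ranges were -0.16 to 0.11 for Atf4 and -0.22 to 0.27 for Trib3, at 6 h -0.26 to 0.22 for Trib3 and -0.0014 to 0.34 for Mthfd2, and at 12 h -0.12 to 0.14 for Atf4 and -0.16 to 0.36 for Mthfd2. For TH in BATKO they were -0.065 to 0.29 for Atf5, -0.36 to 0.019 for Psat1 and -0.026 to 0.13 for Mthfd2, and for the difference of the TH responses -0.56 to 0.27 for Trib3, -0.026 to 0.54 for Psat1 and -0.50 to 0.72 for Phgdh. For cold they were -0.010 to 0.17 for Ddit3 and -0.21 to 0.14 for Asns in CTRL and -0.083 to 0.23 for Atf4 in BATKO. Between genotypes they were -0.22 to 0.062 for Trib3 at 4 °C, and at 30 °C -0.090 to 0.23 for Atf4, -0.69 to 0.52 for Trib3, -0.17 to 0.0095 for Asns and -0.54 to 0.12 for Psat1. For the difference of the cold responses they were -0.56 to 0.62 for Trib3, -0.78 to 0.67 for Chac1 and -0.39 to 0.24 for Mthfd2. For HFD they were -0.19 to 0.15 for Atf5 and -0.25 to 0.54 for Mthfd2 in CTRL, and -0.13 to 0.34 for Atf4, -0.17 to 0.35 for Trib3, -0.026 to 0.32 for Asns and -0.10 to 0.048 for Mthfd2 in BATKO. Between genotypes on HFD they were -0.12 to 0.21 for Atf5, -0.0041 to 0.28 for Asns and -0.20 to 0.59 for Mthfd2, and on chow -0.23 to 0.22 for Atf4, -0.44 to 0.30 for Trib3 and -0.23 to 0.11 for Asns. For the difference of the HFD responses they were -0.048 to 0.29 for Atf5 and -0.55 to 0.24 for Mthfd2.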
